A study of Mus musculus with 15 samples.

Results

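Resident nerve-associated macrophages of punched mouse ear skin (injsNAM) were compared with interstitial macrophages of the same punched ear (injIM). The members are 6 of the 15 RNA-seq libraries of the series, 3 of each population, chosen by their titles and column names. Macrophages were sorted as CD11b+ CD64+ Lin- cells by their reporters, with a GFP+/Tomato+ gate for resident nerve-associated cells and a GFP-/Tomato- gate for interstitial cells. All mice carried CX3CR1-creERT2/gfp and R26-tdT/+ (the genotype label spells the first gene Cxcr1), and all received tamoxifen. The left ear was punched 3 weeks after tamoxifen and its skin was taken 10 days later. Steady-state nerve-associated (sNAM) and interstitial (IM) macrophages came from the right, unpunched ear of the same animals, and recruited nerve-associated macrophages (recsNAM, GFP+/Tomato-) from the punched ear. Neither age nor sex of the mice is stated in the labels.

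Several points limit these groups as models. GFP and the inducible Cre sit on the 2 alleles of the Cx3cr1 locus in every group, so no group has an unmodified allele, and a cell is called nerve-associated here because of that locus and not because of its position on a nerve. The gate for interstitial cells takes cells negative for both reporters and does not tell cells present before the punch from those that arrived after it. For injIM the reporter label reads GFP+/Tomato+, against its title and the sorting protocol, and the titles were followed. All 15 libraries came from 3 mice without a stated match of library to mouse, so p-values measure the spread between these libraries.

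Macrophages of the skin differ by niche. Interstitial macrophages lie in the dermal connective tissue, where they take up matrix, iron and dying cells, whereas a smaller CX3CR1-positive population lies along sensory nerves and takes part in the upkeep and repair of axons and myelin. TGF-β, a cytokine that shapes CX3CR1-positive macrophages such as microglia, is the signal named in the title of the study. A tamoxifen pulse through the Cx3cr1 locus leaves a lasting Tomato label, which is how resident cells are told from later arrivals.

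Each library held about 16889300 to 19520100 recovered reads in injsNAM and 20397800 to 21931400 in injIM. The injsNAM libraries were sparser: 11433 ± 754 entries had a read, against 16193 ± 195 in injIM (SD, n = 3 each), and of the 8656 genes tested 4.26% to 8.79% had no read in an injsNAM library, against 0.139% to 0.277% in an injIM library. Correlations between replicates were 0.762 to 0.772 in injsNAM and 0.966 to 0.983 in injIM. Values are normalised counts, meaning reads divided by 1 factor per library, and a gene was called when its adjusted p (limma, all genes tested) was under 0.05.

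Macrophage markers were abundant in both groups. The 12 macrophage markers, among them Adgre1, Csf1r, Cd68, Mertk and the C1q genes, summed to 19422, 23881 and 25639 CPM (reads scaled to equal library totals) in injsNAM, against 22465, 21682 and 24815 CPM in injIM. These sums overlapped, and none of the 11 markers tested was called. Cx3cr1, which encodes the fractalkine receptor and whose locus was used for sorting, had 66.9, 0 and 0 normalised counts in injsNAM and 0.821, 7.28 and 23.5 in injIM, under the mean of 100 that a gene needed to be tested. The deposited values of Cx3cr1 therefore do not check the gate.

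Transcripts higher in injsNAM than in injIM included the migration receptor Ccr7, the phosphatidylserine receptors Axl and Timd4, the survival genes Bcl2a1b and Serpinb9, and genes known from T and NK cells such as Cd3g. Transcripts that were lower included the matrix genes Dcn, Timp3 and Fbln5, the caveolar gene Cav1 and the lysophospholipid enzymes Enpp2 and Plpp3. Of 8656 genes tested 42 were called (0.485%), 21 higher in injsNAM (0.243%) and 21 lower (0.243%). At an unadjusted p under 0.05 there were 1015 genes (11.7%). The 3 values of injsNAM lay apart from the 3 of injIM for all 42 called genes. Over all genes tested, all 3 injsNAM values were above all 3 injIM values for 772 genes (8.92%) and below them for 1043 genes (12%). The median log2 difference, injsNAM minus injIM, was -0.09 over all genes tested and positive for 43.1% of them. Single libraries weighed heavily: 6, 25 and 2 of the 42 calls were kept without injsNAM replicate 1, 2 or 3, and 24, 20 and 42 without injIM replicate 1, 2 or 3. No call was kept in every one of these 6 settings, and none changed sign. Of the 42 genes, tests on the recovered reads called 13 in edgeR, 28 in DESeq2 and 18 in voom, and voom called none of the 21 lower ones. The 8 called by all of these were Ccr7, Axl, Bcl2a1b, Serpinb9, Rgs1, Ramp3, Clec7a and D16Ertd472e.

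On the log2(value + 100) scale of the fit, the gene with the largest difference among the higher ones was Ccr7, the chemokine receptor that guides cells along CCL19 and CCL21 to lymph nodes. Ccr7 (GRCm38 chr11:99144199-99155077) had 11463, 5110.4 and 4440.2 normalised counts in injsNAM, against 313, 80.9 and 248 in injIM. The lowest injsNAM library thus stood far above the highest injIM library. The means were 7005 ± 3876 in injsNAM and 214 ± 119.6 in injIM (SD, n = 3 each), a 32.8-fold ratio, with a log2 difference of 4.45 ± 0.63 (SE; adjusted p = 0.00411). The call ended without injsNAM replicate 1, at an adjusted p of 0.0587. Ccr7 was also high in the recruited gate, with 6529, 2939.7 and 5339 normalised counts. It was 1 of 16 chemokine and migration receptors tested and the 1 called among them, where 0.243% of all genes tested were called higher. Values of Ccr1, a receptor of inflammatory chemokines, were 8028, 7913 and 12507 in injsNAM and 4785, 4589.8 and 5108 in injIM, without a call (adjusted p = 0.118). Ccr7 is also a marker of migratory dendritic cells, and the 13 dendritic cell markers listed here, Ccr7 among them, summed to 1050.3, 974 and 489 CPM in injsNAM and 315, 228 and 136 CPM in injIM. Without Ccr7 the sums were 357, 666 and 224 CPM in injsNAM and 297, 223 and 121 CPM in injIM, which overlapped. In the unpunched ear these sums were 943, 831 and 1270 CPM in sNAM and 603, 299 and 689 CPM in IM, without overlap. Cd209a alone gave 129, 285 and 143 CPM in injsNAM and 210, 135 and 62.9 CPM in injIM. Flt3, the growth factor receptor of dendritic cells and their precursors, had 682, 164 and 157 normalised counts in injsNAM and 29.6, 85 and 19 in injIM (adjusted p = 0.289). In the unpunched ear Flt3 had 108, 210 and 98.7 CPM in sNAM and 1.77, 1.51 and 0.582 CPM in IM. Clec9a had no read in injsNAM and 0, 1.03 and 0.182 CPM in injIM. Ccl22 had 21, 110 and 0.102 CPM in injsNAM and 2.27, 1.03 and 4.15 CPM in injIM. Ccl17 had 3.89, 139 and 0 CPM in injsNAM and 1.16, 0.196 and 0 CPM in injIM. Both chemokine genes overlapped between the groups without a call. The part of dendritic cells in the Ccr7 value was not tested, and in bulk RNA fewer cells of a type and less RNA per cell cannot be told apart.

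Uptake receptors were the next group, among them 2 that recognise phosphatidylserine, the lipid that dying cells expose. Axl, a TAM-family receptor tyrosine kinase that binds phosphatidylserine through its ligand Gas6, had 9099, 8564 and 4598 normalised counts in injsNAM, against 957, 1134 and 967 in injIM. The mean of Axl was 7420.2 ± 2459 in injsNAM and 1019 ± 99.5 in injIM, 7.28-fold apart, with a log2 difference of 2.69 ± 0.39 (SE; adjusted p = 0.00411). Timd4, which encodes the phosphatidylserine receptor TIM-4 and marks long-lived macrophages in many tissues, had 3991, 1646 and 647 in injsNAM, against 57.5, 86.6 and 0 in injIM. Its log2 difference was 3.61 ± 0.70 (SE; adjusted p = 0.0233), and the injsNAM values spread over a wide range. Gas6 itself went the other way without a call, with 6302, 5777 and 7693 in injsNAM and 13124, 15166 and 12932 in injIM (adjusted p = 0.0688), and the 3 injsNAM values lay below the 3 injIM values. Clec7a, which encodes the fungal β-glucan receptor dectin-1, rose to 3216, 5187 and 4909 in injsNAM, against 1124, 1229 and 1137 in injIM, with the injIM libraries close together. Its log2 difference was 1.82 ± 0.35 (adjusted p = 0.0233). Axl and Clec7a were the 2 called genes of 23 complement, scavenger and phagocytic receptors tested, where 0.243% of all genes tested were called higher. That list had a median log2 difference of -0.10, close to that of all genes tested. It had 2 members wholly above and 4 wholly below injIM, against 8.92% and 12% of all genes tested. Leaving out injsNAM replicate 1 ended the calls of Axl (0.0587), Timd4 (0.206) and Clec7a (0.0874), and leaving out injsNAM replicate 2 or 3 ended those of Timd4 (0.0647 and 0.0742) and Clec7a (0.0905 and 0.149).

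A pair of survival genes rose as well. Bcl2a1b, an antiapoptotic BCL2 relative induced by NF-κB, had 2423, 2638 and 2566 normalised counts in injsNAM, against 352, 319.7 and 276 in injIM. The values were close together within each group, with means of 2542 ± 109 in injsNAM and 316 ± 37.7 in injIM, 8.05-fold apart (log2 difference 2.67 ± 0.37, adjusted p = 0.00411; 0.0549 without injsNAM replicate 3). The near-identical copies Bcl2a1a (adjusted p = 0.0688) and Bcl2a1d (adjusted p = 0.0710) were also higher in every injsNAM library than in every injIM library without a call, and how reads were divided among the copies is unstated, so the level of each single copy is uncertain. Serpinb9, an inhibitor of granzyme B, had 2695, 905 and 1212 in injsNAM, against 157, 143 and 137 in injIM (log2 difference 2.65 ± 0.50, adjusted p = 0.0208; 0.189 and 0.105 without injsNAM replicate 1 or 3). Of 24 genes of NF-κB feedback and survival tested, these 2 were called higher and none was called lower (0.243% of all genes tested in each direction). In 13 of the 24 every injsNAM value exceeded every injIM value, against 8.92% of all genes, and in none was the reverse seen. The median log2 difference of the list was 0.35. Traf1, an adaptor of TNF receptors, had 7902, 7754 and 6286 in injsNAM and 3452, 3111 and 3931 in injIM (adjusted p = 0.249). Tnip3, an inhibitor of NF-κB activation, had 5291, 8013 and 2965 in injsNAM and 2459.9, 2006 and 1746 in injIM (adjusted p = 0.0949), again separate but not called. Mcl1, another antiapoptotic BCL2 relative, overlapped between the groups, with 44720.1, 43119 and 41434 in injsNAM and 48842, 46112 and 42857 in injIM.

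Rgs1 and Ramp3, which encode signalling proteins, were higher too. Rgs1, a GTPase activator that dampens chemokine receptor signals, had 15169, 5359 and 10096 normalised counts in injsNAM, against 1493, 1461 and 1536 in injIM (log2 difference 2.57 ± 0.40, adjusted p = 0.00646). Ramp3, which pairs with the calcitonin receptor-like receptor to form an adrenomedullin receptor, had 3943, 2235 and 5303 in injsNAM, against 498, 296 and 698 in injIM (log2 difference 2.69 ± 0.49, adjusted p = 0.0164). For both genes the lowest injsNAM value was over the highest injIM value by a clear margin. Without injsNAM replicate 1 or 3 the adjusted p was 0.0955 or 0.0742 for Rgs1 and 0.116 or 0.149 for Ramp3. The remaining higher genes outside the lymphocyte set were Rnf125, a ubiquitin ligase, Gcnt2, a branching glycosyltransferase, Thada, Faah, the hydrolase of the endocannabinoid anandamide, D16Ertd472e and Hip1r, a clathrin adaptor, with log2 differences from 2.10 (Hip1r) to 2.62 (Rnf125) and adjusted p from 0.0164 (Faah) to 0.0482 (D16Ertd472e). All 6 of these calls ended without injsNAM replicate 1 (adjusted p from 0.116 to 0.225) and without replicate 3 (0.0742 to 0.195). Without replicate 2 those of Gcnt2, Thada and D16Ertd472e ended (0.0690 to 0.148). Leaving out injIM replicate 1 or 2 ended those of Rnf125, D16Ertd472e and Hip1r (0.0526 to 0.0758), and replicate 2 also that of Thada (0.0525). Of these 6 genes edgeR called only D16Ertd472e (0.0266), with the others from 0.0657 (Gcnt2) to 0.544 (Thada). Faah was also not called by DESeq2 (0.0997) or voom (0.0812). Faah and Hip1r had means of 502 and 419 in injsNAM and under 100 in every other group. Both thus reached the mean of 100 needed for testing through injsNAM, the group where they were high.

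Promoters are shown for 4 higher genes, Timd4, Ramp3, Axl and Bcl2a1b. Cd3g and Mest, whose injsNAM values were far lower in replicate 2, were left out. The 4 shown are the other genes whose symbol matched a promoter window (GRCm38.p6), among the 12 higher genes with the largest log2 differences. Each runs 5′ to 3′ on the gene's strand from 250 bases before the first start listed, and capitals mark GAGGAA or its reverse complement, the core recognised by PU.1, the master transcription factor of macrophages. They lie at chr11:46810549-46810848 on the plus strand (Timd4), at chr11:6658283-6658582 on the plus strand (Ramp3), at chr7:25788684-25788983 on the minus strand (Axl) and at chr9:89199023-89199322 on the plus strand (Bcl2a1b), and part of the Axl window lies within the gene, whose span is chr7:25756500-25788924.
Timd4: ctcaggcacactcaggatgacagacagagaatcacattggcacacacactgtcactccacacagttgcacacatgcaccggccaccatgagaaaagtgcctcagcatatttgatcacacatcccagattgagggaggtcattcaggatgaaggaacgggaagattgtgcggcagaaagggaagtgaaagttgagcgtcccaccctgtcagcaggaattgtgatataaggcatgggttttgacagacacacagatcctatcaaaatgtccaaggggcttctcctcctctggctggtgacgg
Ramp3: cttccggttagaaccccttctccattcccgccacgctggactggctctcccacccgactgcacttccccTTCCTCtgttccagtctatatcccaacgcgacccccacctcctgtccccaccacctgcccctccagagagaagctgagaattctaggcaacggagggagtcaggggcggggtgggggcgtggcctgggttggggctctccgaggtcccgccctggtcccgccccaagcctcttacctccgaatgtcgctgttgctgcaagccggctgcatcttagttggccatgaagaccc
Axl: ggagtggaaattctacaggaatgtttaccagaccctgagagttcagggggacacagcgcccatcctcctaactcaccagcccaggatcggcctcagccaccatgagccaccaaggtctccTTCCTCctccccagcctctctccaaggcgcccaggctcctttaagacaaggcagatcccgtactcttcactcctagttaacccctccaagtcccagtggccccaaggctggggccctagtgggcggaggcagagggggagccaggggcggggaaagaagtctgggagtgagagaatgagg
Bcl2a1b: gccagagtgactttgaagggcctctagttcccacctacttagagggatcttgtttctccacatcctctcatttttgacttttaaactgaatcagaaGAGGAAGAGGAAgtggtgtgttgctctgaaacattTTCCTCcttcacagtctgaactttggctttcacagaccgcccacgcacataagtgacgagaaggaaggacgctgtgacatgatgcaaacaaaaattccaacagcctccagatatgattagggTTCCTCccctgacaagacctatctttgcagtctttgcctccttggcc
The Timd4 window held no match, the Ramp3 and Axl windows held 1 each, and the Bcl2a1b window held 4 matches, 2 of them side by side.

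Promoter windows were matched by symbol for 6 of the 12 higher genes and 10 of the 12 lower genes with the largest differences, using the first start listed for each gene. The PU.1 core GAGGAA, read on both strands, stood in 4 of the 6 higher and 2 of the 10 lower windows, against 28.3% of 32851 windows of the same length. The NF-κB pattern, GGG and CC with 5 bases of any kind between, stood in 5 of 6 higher and 7 of 10 lower windows (50.8% of all), the SMAD core CAGAC in 4 of 6 and 3 of 10 (49.6%), the AP-1 site TGANTCA in 1 of 6 and 0 of 10 (7.81%), and the E-box CACGTG in none of either (7.15%). These are matches of letters, with numbers too small to set the groups apart.

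**Figure D1:**
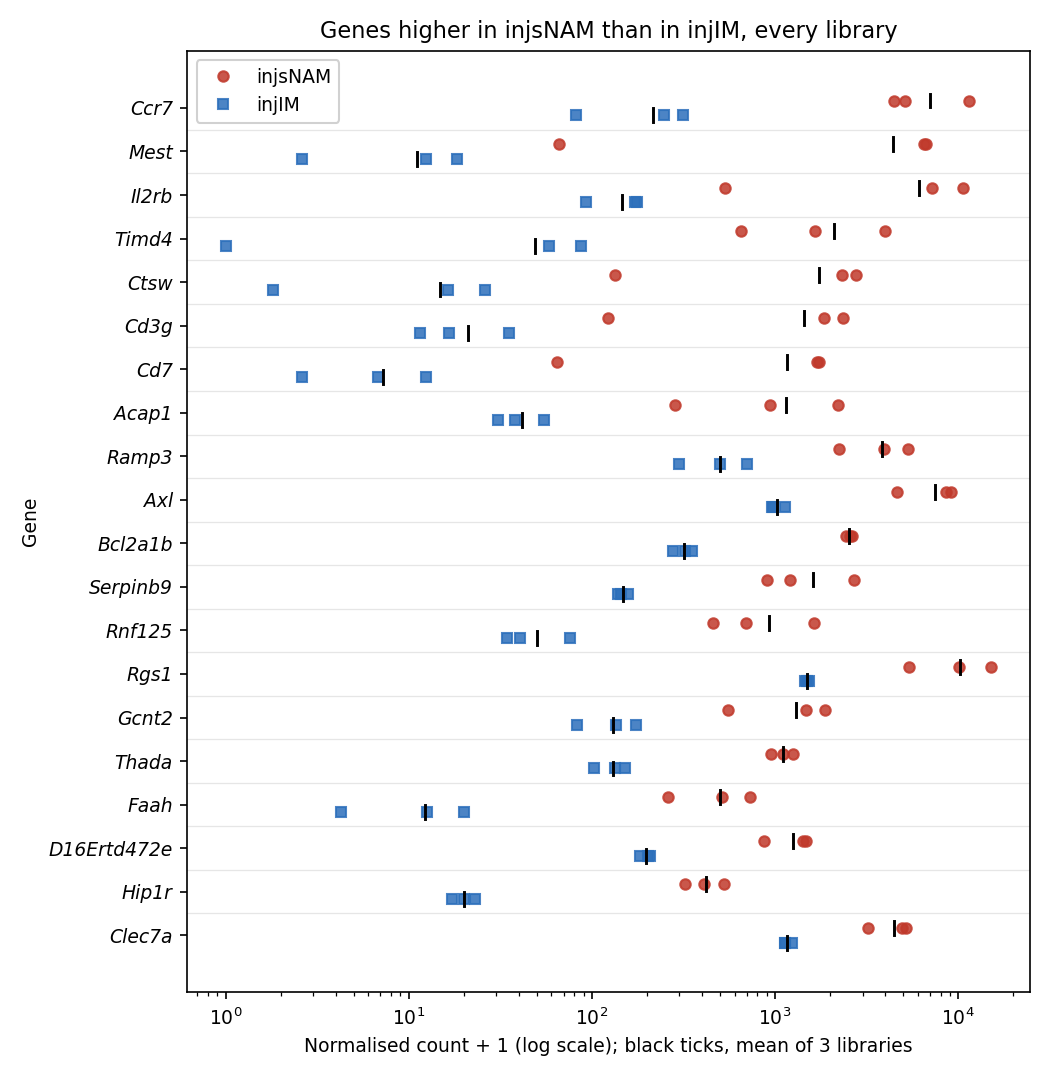
Normalised counts plus 1 on a log axis of 20 of the 21 genes called higher, with 1 point per library, a black tick at each group mean and injsNAM drawn above injIM in each row. Values of injsNAM are higher than those of injIM for every gene drawn, close together for Bcl2a1b, whereas Mest, Il2rb, Ctsw, Cd3g and Cd7 are high in injsNAM replicates 1 and 3 and far lower in replicate 2.

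Genes known from T and NK cells rose with a different shape. Cd3g, a chain of the T cell receptor complex, had 1854, 122 and 2333 normalised counts in injsNAM replicates 1, 2 and 3, against 15.6, 10.5 and 34.2 in injIM. Il2rb, the β chain shared by the receptors for IL-2 and IL-15, had 10588, 528 and 7152 in injsNAM, against 174, 91.5 and 170.1 in injIM. Ctsw, a protease of cytotoxic lymphocytes, had 2751, 133 and 2324 in injsNAM, against 0.821, 15.4 and 25.1 in injIM. In each, replicates 1 and 3 of injsNAM were high, and replicate 2 was far lower but above every injIM library. The same shape was seen for Cd7, a surface protein of T and NK cells, with 1685, 63.7 and 1738 in injsNAM and 5.75, 1.62 and 11.4 in injIM. Acap1, an activator of ARF GTPases, had 2211, 284 and 934 in injsNAM and 29.6, 37.2 and 53.9 in injIM. Again replicate 2 was the lowest injsNAM library. Log2 differences ran from 2.80 (Acap1) to 3.92 (Il2rb) and adjusted p from 0.0101 (Ctsw) to 0.0460 (Cd3g). Mest, an imprinted gene not known as a lymphocyte gene, followed the same libraries, with 6677, 64.7 and 6458 in injsNAM and 17.2, 1.62 and 11.4 in injIM (log2 difference 4.14 ± 0.86, adjusted p = 0.0356). The gene spans of Mest and Copg2 overlap, as do those of Ctsw and Fibp, and whether counting used strand is unstated, so reads of such partners cannot be told apart.

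Markers of T and NK cells moved with these genes. Their 12 fixed markers summed to 789, 357 and 798 CPM in injsNAM, against 235, 225 and 176 CPM in injIM. Most of the injIM sum was Il7r, the receptor chain for interleukin-7, with 266, 334 and 303 CPM in injsNAM and 229, 220.5 and 171 CPM in injIM. Without Il7r the sums were 524, 23.2 and 495 CPM in injsNAM, against 6.08, 4.41 and 5.65 CPM in injIM. The gap was thus wide in injsNAM replicates 1 and 3 and small in replicate 2. Of 5 markers tested Cd3g was called, where 0.243% of all genes tested were called higher. Trdc, 1 of the 5, is listed more than once in the deposited table. Cd3e had 2870.2, 78.4 and 1641 normalised counts in injsNAM and 26.3, 8.09 and 15.9 in injIM (adjusted p = 0.0508), Nkg7, a granule protein of cytotoxic cells, had 1907, 0 and 2525 in injsNAM and 4.93, 4.05 and 3.04 in injIM (adjusted p = 0.0688). In the recruited gate of the same ear the marker sum without Il7r was 9.49, 11.2 and 14.2 CPM, and Il2rb had 95, 289 and 210.4, Cd3g 89.5, 21.1 and 15.4 and Mest 26.5, 0 and 113 normalised counts. The signal was not particular to the punched ear. In sNAM of the unpunched ear the marker sum without Il7r was 220, 9.58 and 443 CPM, against 6.08, 12.5 and 4.85 CPM in IM. Cd3e had 1264, 49.5 and 1802 normalised counts in sNAM and 15.2, 57.7 and 30.3 in IM. Without injsNAM replicate 2 the adjusted p of Mest, Il2rb, Ctsw, Cd3g, Cd7 and Acap1 ran from 0.000174 (Ctsw) to 0.00813 (Il2rb). Without replicate 1 they ran from 0.116 (Ctsw) to 0.293 (Il2rb), and without replicate 3 from 0.111 (Acap1) to 0.282 (Cd3g), so that none stayed called. Leaving out injIM replicate 1 or 2 ended the calls of Mest, Il2rb, Cd3g and Cd7 (0.0622 to 0.0742), and edgeR called none of the 6 (0.0640 to 0.272). The part of lymphocytes in these values was not tested.

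The matrix genes Dcn, Timp3 and Fbln5 and the caveolar gene Cav1 were lower in injsNAM. Dcn, which encodes the collagen-binding proteoglycan decorin, fell to 175, 0 and 0 normalised counts in injsNAM, against 1750.3, 2382 and 2626 in injIM. In 2 of the 3 injsNAM libraries no Dcn read was recovered, and the log2 difference was -4.05 ± 0.64 (SE; adjusted p = 0.00646). Timp3, an inhibitor of metalloproteinases that is held in the matrix, had 14.1, 0 and 0 in injsNAM, against 699.8, 832 and 522 in injIM (log2 difference -2.89 ± 0.51, adjusted p = 0.0164). Its span lies within that of Syn3. Fbln5, an organiser of elastic fibres, had 66, 0 and 0.856 in injsNAM, against 534, 489.7 and 610.4 in injIM (log2 difference -2.44, adjusted p = 0.0164). For all 3 genes at least 1 injsNAM library had no read, and every injIM library had reads. Cav1, the coat protein of caveolae, fell to 34.3, 675 and 679 in injsNAM, against 5009, 6480.4 and 3484 in injIM (log2 difference -3.51 ± 0.72, adjusted p = 0.0311). Leaving out injsNAM replicate 3 ended the calls of all 4 genes, with adjusted p from 0.0742 (Dcn) to 0.119 (Fbln5), and leaving out replicate 1 kept only Dcn (0.0355). Cav1 was also lost without injIM replicate 1 or 2 (0.0608 and 0.0586). In edgeR none of the 4 was called, with adjusted p from 0.267 (Timp3) to 0.620 (Cav1).

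The 7 fibroblast markers, Dcn among them, summed to 38.8, 0.355 and 34.4 CPM in injsNAM, against 404, 277 and 1048 CPM in injIM. The highest injsNAM sum was thus far under the lowest injIM sum. Of 5 fibroblast markers tested Dcn was called, while all 5 lay lower in every injsNAM library than in every injIM library. Over all genes tested 0.243% were called lower and 12% lay lower in every injsNAM library. Pdgfra and Dpt were at 0 in all injsNAM libraries. Col1a1, a chain of type I collagen, had 9.58, 0.178 and 0 CPM in injsNAM and 59.1, 17.9 and 244 CPM in injIM. Endothelial markers summed to 0.0532, 0 and 0.973 CPM in injsNAM and 13.8, 21.5 and 7.89 CPM in injIM. The part of fibroblasts or vessel cells in the lower genes was not tested.

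Several mast cell genes had a like pattern at low levels. Cpa3, the carboxypeptidase of mast cell granules, had 0, 0.981 and 4.28 normalised counts in injsNAM (6 reads in all), against 981, 844 and 904 in injIM (log2 difference -3.31 ± 0.67, adjusted p = 0.0310). The 10 mast cell markers summed to 38, 15.4 and 201 CPM in injsNAM, against 274, 259.7 and 275 CPM in injIM, with injsNAM replicate 3 nearest to injIM. Of 8 markers tested Cpa3 was called lower, as were 0.243% of all genes tested. The granule proteases Cma1 (adjusted p = 0.0722) and Mcpt4 (adjusted p = 0.0767) were lower in every injsNAM library than in every injIM library without a call, as were Kit and Gata2. Of all genes tested 12% lay lower in every injsNAM library. The other markers tested, Tpsb2, Tpsab1 and Hdc, overlapped between the groups. In injsNAM replicate 3 they had 62.6, 25.5 and 97.3 CPM, above every injIM library. Fcer1a was at 0 in all injsNAM libraries. The call of Cpa3 was lost without any 1 of injsNAM replicates 1 to 3 or injIM replicates 1 and 2 (adjusted p from 0.0528 to 0.156), and the part of mast cells in it was not tested.

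**Figure D2:**
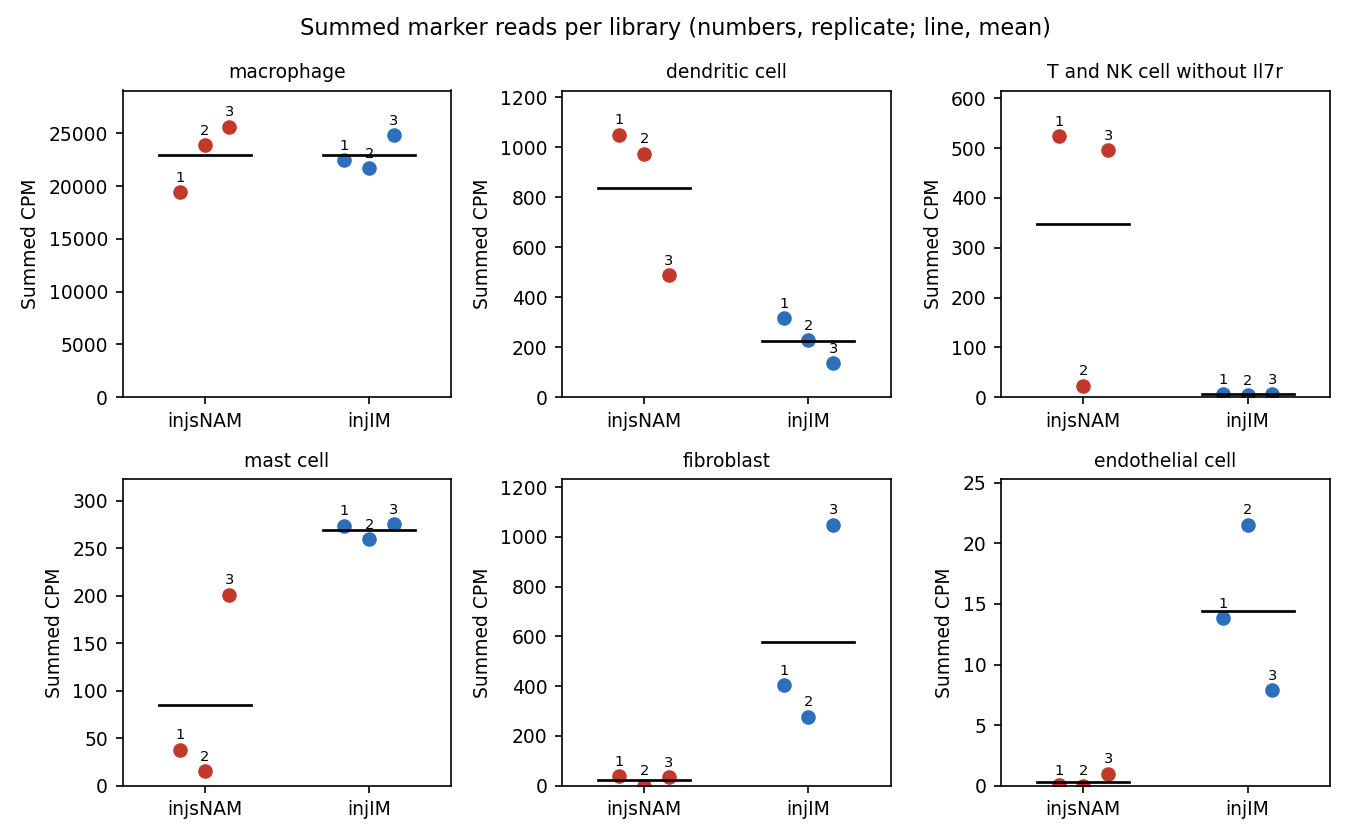
Summed CPM of the fixed markers of 6 cell types, with 1 point per library (number, replicate) and a line at the mean of each group, each panel with an axis from 0. Macrophage sums overlap between injsNAM and injIM, T and NK cell sums are high in injsNAM replicates 1 and 3, and fibroblast, mast cell and endothelial sums are higher in injIM.

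Enzymes that make and remove lysophosphatidic acid, a signalling lipid, were both lower. Enpp2 encodes autotaxin, which makes it, and had 1.76, 0 and 0 normalised counts in injsNAM (2 reads in all), against 609, 502 and 385 in injIM (log2 difference -2.56 ± 0.43, adjusted p = 0.0109). Plpp3 encodes a phosphatase that degrades it, and had 153, 0.981 and 8.56 in injsNAM, against 895, 822 and 948 in injIM (log2 difference -2.81 ± 0.44, adjusted p = 0.00646). All injsNAM libraries were under all injIM libraries for both genes. Without injsNAM replicate 3 the adjusted p was 0.0742 for Enpp2 and 0.0742 for Plpp3, and without replicate 1 it was 0.0808 for Enpp2. Plpp3 was not called by edgeR (0.504), DESeq2 (0.0795) or voom (0.285). Enpp2 was called by edgeR (0.0212) and DESeq2 (1.92e-13) but not by voom (0.234).

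Adhesion and membrane traffic genes were among the remaining lower ones. Ptk2, the focal adhesion kinase, had no read in any injsNAM library, against 426, 304 and 241 normalised counts in injIM, at least 119-fold lower when 3 reads per library are taken as the floor (adjusted p = 0.0359). Cnrip1, which encodes a protein that binds cannabinoid receptor 1, likewise had no read in injsNAM, against 619, 403 and 415 in injIM, at least 176-fold lower on the same floor (adjusted p = 0.0202). Both bounds cover counting error of reads only. Reads after PCR are not independent molecules, so the difference in RNA can be smaller than these bounds. Dnm1, the vesicle-cutting GTPase dynamin, had 3.52, 0 and 128 in injsNAM, against 880.5, 821 and 389.5 in injIM (adjusted p = 0.0311). Each of these was detected in all 3 injIM libraries. Sema4b, a membrane semaphorin, had 36.1, 113 and 100.2 in injsNAM, against 1084, 1008 and 832 in injIM (log2 difference -2.57, adjusted p = 0.0164). Serinc5, a membrane protein that reduces the infectivity of retroviruses, had 0, 1.96 and 1.71 in injsNAM (4 reads in all), against 459, 709 and 594 in injIM (log2 difference -2.75, adjusted p = 0.0244). Itsn1, an endocytic scaffold, had 1768, 223 and 359 in injsNAM, against 3170.4, 3049 and 2079 in injIM (adjusted p = 0.0381), and Exoc1, of the exocyst, had 449.8, 12.7 and 12.8 in injsNAM, against 779, 885 and 677 in injIM (adjusted p = 0.0482). All values of injsNAM were under those of injIM. Leaving out injsNAM replicate 3 ended each of these 7 calls, with adjusted p from 0.0798 (Dnm1) to 0.269 (Exoc1), and leaving out replicate 1 ended all but Itsn1 and Exoc1 (0.116 to 0.189). Without replicate 2 those of Ptk2, Dnm1, Serinc5, Itsn1 and Exoc1 ended (0.0614 to 0.215). Leaving out injIM replicate 1 or 2 ended those of Ptk2, Dnm1, Itsn1 and Exoc1 (0.0504 to 0.0833), and replicate 2 also that of Serinc5 (0.0525). In edgeR Ptk2, Sema4b and Cnrip1 were called (0.0196 to 0.0442), and Serinc5, Itsn1, Dnm1 and Exoc1 were not (0.159 to 0.856).

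Metabolic and other genes completed the lower set. Abcd3, a fatty acid transporter of peroxisomes, had 180.4, 22.6 and 0 normalised counts in injsNAM, against 696, 815 and 755 in injIM (log2 difference -2.50 ± 0.44, adjusted p = 0.0164). Erlin1, a protein of the endoplasmic reticulum membrane, had 224, 0.981 and 284 in injsNAM, against 1517, 1373 and 919 in injIM (adjusted p = 0.0356). Lemd3, an inner nuclear membrane protein that binds SMADs and restrains TGF-β signals, had 155, 132 and 44.5 in injsNAM, against 761, 623 and 704 in injIM (log2 difference -1.96 ± 0.43, adjusted p = 0.0482). The 3 genes were detected in every injIM library. Casp9, the initiator caspase of the mitochondrial death pathway, had 1 read over the injsNAM libraries, against 362, 418 and 437 normalised counts in injIM (adjusted p = 0.0264). Prps2, which makes the activated ribose of nucleotide synthesis, also had 1 read in injsNAM, against 436, 396 and 328 in injIM (adjusted p = 0.0373). Gpt2, a mitochondrial alanine aminotransferase, and Rcbtb1 had log2 differences of -1.97 and -2.37 (adjusted p = 0.0482 and 0.0244). None of these 7 calls was kept without injsNAM replicate 3 (adjusted p from 0.105 to 0.313), and only that of Abcd3 was kept without injsNAM replicate 1, without injsNAM replicate 2 and without injIM replicate 2. Leaving out injIM replicate 1 ended those of Lemd3, Gpt2, Erlin1 and Prps2 (0.0664 to 0.0798). Of these 7 genes edgeR called only Lemd3 (0.0408), with the others from 0.0677 (Prps2) to 0.438 (Abcd3). A gene with few or no reads in injsNAM was at or near the limit of detection in these sparser libraries, which does not show its absence.

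**Figure D3:**
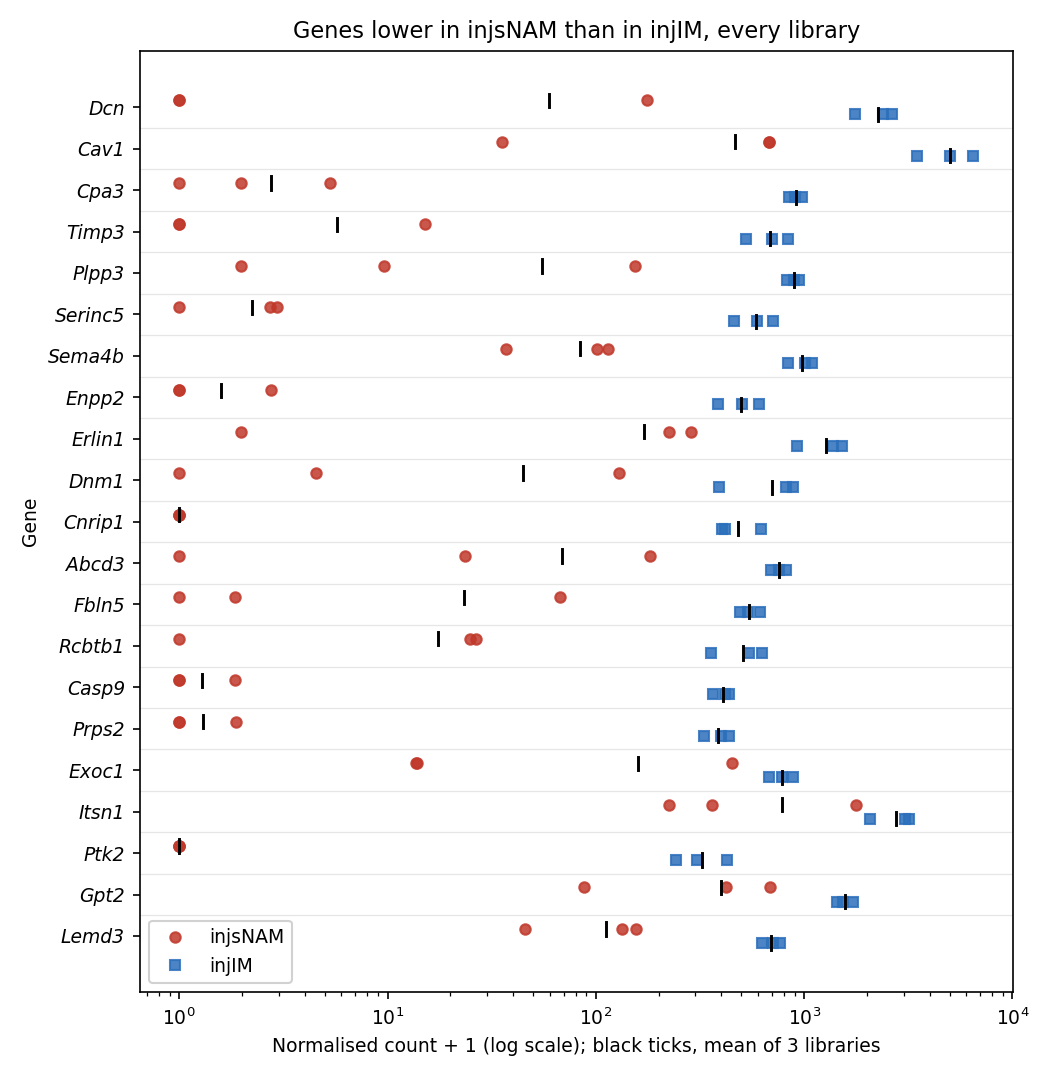
Normalised counts plus 1 on a log axis of the 21 genes called lower, with 1 point per library, a black tick at each group mean and injsNAM drawn above injIM in each row. Values of injsNAM are lower than those of injIM for every gene, and many sit at the left end of the axis because no read was recovered there, as in all 3 injsNAM libraries for Cnrip1.

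The 20 gene lists, which cover the functions of skin macrophages, were then read as groups, with counts of called members set beside the 0.243% of all genes called in each direction. Genes typical of perivascular and interstitial macrophages had a median below that of all genes. Of 22 tested, Timd4 was called higher and none was called lower, 12 lay below injIM in every library (12% of all genes did), and the median log2 difference was -0.96. F13a1, which encodes a subunit of clotting factor XIII, had 10885, 13369 and 12759.8 normalised counts in injsNAM, against 33800, 35813 and 18293 in injIM (adjusted p = 0.247). Cd163, the haemoglobin scavenger receptor, had 2858, 5164 and 3631 in injsNAM, against 11698, 9869.9 and 5595 in injIM (adjusted p = 0.331). Lyve1, a hyaluronan receptor of perivascular macrophages, had 31.7, 0 and 0.856 in injsNAM, against 539.6, 467 and 85.8 in injIM (adjusted p = 0.490). These 3 genes were separate between groups but did not pass the test. Ednrb, the endothelin receptor B, had 3530.2, 4205 and 4153 in injsNAM and 12746, 14764 and 8829 in injIM (adjusted p = 0.233).

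Nerve-associated and microglia-like genes showed no call among 14 tested and a median log2 difference of 0.02. Of these genes 3 lay wholly above injIM, against 8.92% of all genes tested. Tmem119, a membrane protein of microglia, had 598, 1093 and 1069.6 normalised counts in injsNAM, against 159, 264 and 298 in injIM (log2 difference 1.56 ± 0.51, adjusted p = 0.200). Csf1r, the receptor for the macrophage growth factor CSF1, had 58589, 47645 and 41344 in injsNAM and 67039.8, 74202 and 51769.6 in injIM. Its values overlapped. No gene of the TGF-β pathway was called among 26 tested (median 0.12, 6 wholly above and 4 wholly below injIM, against 8.92% and 12% of all genes tested). The ligand gene Tgfb1 had 4524, 5038 and 4966 in injsNAM, against 5614, 5514 and 5309 in injIM, a log2 difference of -0.18 ± 0.32 (adjusted p = 0.904). Itgb5, an integrin chain that can take part in TGF-β activation, had 4182, 4791 and 5498 in injsNAM and 2217, 2885 and 2419 in injIM (adjusted p = 0.352). Smad2, a signal carrier of the pathway, had 1573, 2312 and 3211 in injsNAM and 1526, 1417 and 1116 in injIM (adjusted p = 0.403). Thbs1, the matricellular activator thrombospondin 1, had 112020, 133346 and 99031 in injsNAM and 87424, 94972 and 79641 in injIM (adjusted p = 0.948).

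Inflammatory and antigen-presenting genes had no call and medians above that of all genes. Among 26 inflammatory cytokines and chemokines 4 were wholly above and 1 wholly below injIM (median 0.24), against 8.92% and 12% of all genes tested. Il1b, the cytokine interleukin-1β, had 59825, 72912 and 51829.8 normalised counts in injsNAM, against 19745, 17374 and 20335 in injIM, and did not pass the test (log2 difference 1.67 ± 0.38, adjusted p = 0.0605). Its antagonist gene Il1rn overlapped, with 37353, 66134 and 50412 in injsNAM and 50445, 37565 and 49402 in injIM. Of 24 antigen presentation genes 10 could be tested, since 14 are listed more than once in the deposited table, and 4 lay wholly above injIM (median 0.70). Cd74, the chaperone of MHC class II molecules, had 260334, 269879 and 276655 in injsNAM, against 122403, 71887 and 122882 in injIM (adjusted p = 0.161). Ciita, the activator of MHC class II genes, had 589.7, 341 and 522 in injsNAM and 92.8, 78.5 and 165 in injIM (adjusted p = 0.215). Both genes were separate between the groups. Cd83, a surface protein of activated antigen-presenting cells, had 36618, 36854 and 29276 in injsNAM and 19299, 16919 and 16001 in injIM (adjusted p = 0.101), and Cd86, a costimulatory ligand, had an adjusted p of 0.212. Monocyte-derived (15 tested, median 0.29) and interferon response genes (25 tested, median 0.09) had no call, and Lyz2 and Irf7 overlapped between the groups.

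Lysosomal, iron and lipid genes had no call and medians below that of all genes. Of 33 lysosomal genes 17 were wholly below and 2 wholly above injIM, against 12% and 8.92% of all genes tested, and the median was -0.45. Ctsk, a collagen-cleaving cathepsin, had 15.8, 1546 and 2366 normalised counts in injsNAM, against 9471, 12482 and 32186 in injIM (log2 difference -4.34 ± 0.97, adjusted p = 0.0669). Psap, the precursor of the saposins, had 42065, 69949.7 and 58955 in injsNAM, against 113259, 95776 and 102313 in injIM (adjusted p = 0.230). The Ctsk values spread widely in injsNAM, those of Psap less so. Ctsb, a general lysosomal protease, had 161391, 147925 and 189048 in injsNAM and 271066, 230110 and 246821 in injIM (adjusted p = 0.352), and Atp6v0d2, a proton pump subunit, an adjusted p of 0.0688. Of 21 iron and haem genes 9 were wholly below and 1 wholly above injIM (median -0.62). Slc40a1, the iron exporter ferroportin, had 789, 1819.8 and 170.4 in injsNAM, against 2692, 3171 and 3685 in injIM (adjusted p = 0.0698). Hmox1, the haem-degrading oxygenase, had 80015, 56929.5 and 37787 in injsNAM, against 140500, 131788 and 150685 in injIM (adjusted p = 0.666). The ferritin chain gene Fth1 overlapped (adjusted p = 0.875), whereas Trf, which encodes transferrin, was the 1 member wholly above, with 16394, 9018 and 15164 in injsNAM and 8586, 6363 and 6751 in injIM. Lipid handling genes had 9 of 27 wholly below and none above (median -0.45), among them Gpnmb, a glycoprotein of lipid-laden macrophages, with 6099, 4115 and 9318 in injsNAM and 19708, 27451 and 15979 in injIM (adjusted p = 0.170). Apoe overlapped between the groups (log2 difference 0.32).

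Of 29 matrix remodelling and growth factor genes Timp3 was called lower, and the median was -0.49. Of the 29, 7 were wholly below and 1 wholly above injIM, against 12% and 8.92% of all genes tested. Mmp9, a gelatinase, had the largest log2 difference in size of any gene tested, with 229, 66.7 and 2679.6 normalised counts in injsNAM, against 8654, 16010.4 and 59304 in injIM, but its libraries spread widely and it was not called (log2 difference -5.25 ± 1.28, adjusted p = 0.0767). Timp2, another inhibitor of metalloproteinases, had 19164, 16932 and 18787 in injsNAM and 33815, 33088 and 30213 in injIM (adjusted p = 0.193). The lists without a call whose medians were nearer to that of all genes were alternative activation (15 tested, 0.07), glycolysis and hypoxia (23, -0.24), the respiratory chain (37, -0.06), the cell cycle (26, 0.18), lineage transcription factors (27, -0.21) and immediate-early genes (23, 0.20). Mrc1, the mannose receptor, had 20804, 10545 and 12538 in injsNAM and 30983, 28234 and 19587 in injIM (adjusted p = 0.297), and Mki67, a marker of dividing cells, had 2192, 2267 and 1041 in injsNAM and 1965, 2068 and 843 in injIM. Both overlapped. Among immediate-early genes Btg2, an inhibitor of proliferation, had 6852, 6822 and 6889 in injsNAM, against 2203, 2210.3 and 2488 in injIM (adjusted p = 0.0740), and Jun, a subunit of AP-1, had 4032, 5152 and 2726 in injsNAM, against 8151, 10016 and 8209 in injIM (adjusted p = 0.0978).

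**Figure D4:**
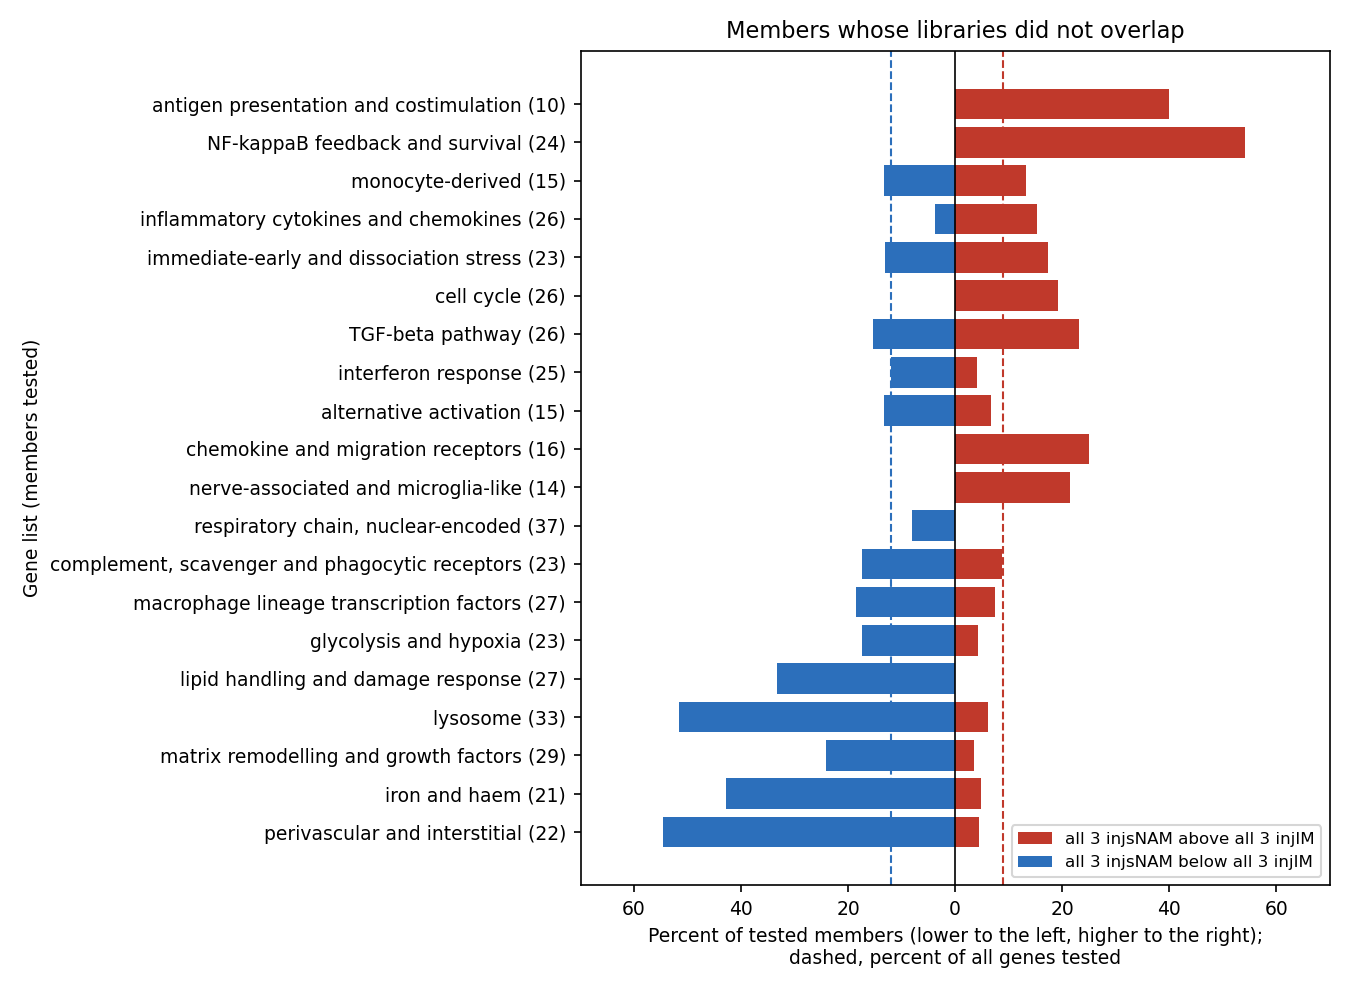
Percent of the tested members of each of 20 gene lists whose 3 injsNAM libraries lay all above (right) or all below (left) the 3 injIM libraries, with dashed lines at the 8.92% and 12% of all genes tested, and lists ordered by their median log2 difference. NF-κB feedback and survival genes reach furthest to the right (13 of 24), and perivascular (12 of 22) and lysosomal genes (17 of 33) furthest to the left.

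The same contrast in the unpunched ear, sNAM against IM, uses other libraries from the same mice within the same fit over 15 libraries. Each gene's spread was shared by both contrasts, so calls in 1 ear are no independent repeat of those in the other. In the unpunched ear 91 genes were called (1.05%), 47 higher (0.543%) and 44 lower (0.508%). Of the 21 genes higher in injsNAM 8 were also called higher in sNAM, namely Ccr7, Timd4, Acap1, Ramp3, Axl, Bcl2a1b, Serpinb9 and Rgs1. Of the 21 lower genes 4 were also called lower in sNAM, namely Fbln5, Abcd3, Cnrip1 and Dcn. By sign alone 20 of 21 higher genes were higher in sNAM too (37.0% of all genes were), and 20 of 21 lower genes were lower (63.0% of all). All sNAM values were above all IM values for 13 of the 21 higher genes (9.57% of all genes) and below them for 14 of the 21 lower genes (18.4% of all). Axl had a log2 difference of 2.69 in the punched ear and 2.74 in the unpunched ear, and Ccr7 had 4.45 in the punched ear and 5.55 in the unpunched ear. The sNAM libraries held as few as 5636250 reads.

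Whether the difference between the populations itself differed between the ears was tested as an interaction. No gene of 8656 was called by limma (0%), 444 had an unadjusted p under 0.05 (5.13%), and edgeR and DESeq2 on the recovered reads called 26 and 228. Among the 42 called genes 6 had an unadjusted interaction p under 0.05. The 42 were chosen by injsNAM minus injIM, which is part of the interaction, so this count cannot be set against the 5.13%. Plpp3 had a log2 difference of -2.81 in the punched ear, against -0.29 in the unpunched ear (interaction -2.52 ± 0.72, adjusted p = 0.742). Faah had 2.36 in the punched ear, against -0.24 in the unpunched ear (interaction 2.59 ± 0.71, adjusted p = 0.742). In the same order of ears, punched and then unpunched, Erlin1 had -2.53 and -0.18, Hip1r 2.10 and 0.01, and Thada 2.39 and 0.29, with adjusted p of 0.839 for all 3. None of these interactions passed the test. Faah and Hip1r reached the mean needed for testing through injsNAM, the only group where either had a mean over 100. Lemd3 was the other of the 6.

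**Figure D5:**
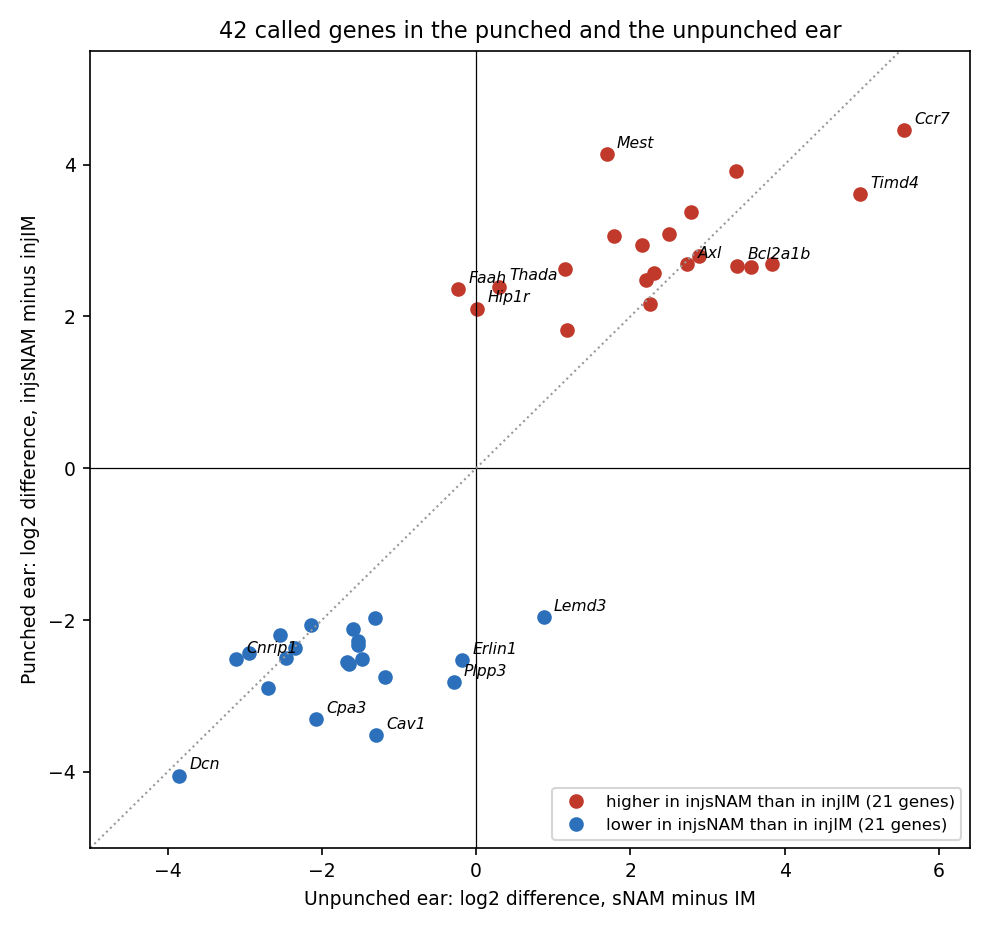
Log2 differences of the 42 called genes in the unpunched ear (sNAM minus IM, horizontal axis) and the punched ear (injsNAM minus injIM, vertical axis), with 1 point per gene and a dotted line where both are equal. Genes were chosen by the vertical axis, 40 of 42 have the same sign on both axes, and Faah and Lemd3 lie across the vertical zero line.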

How the data were processed

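RNA was sequenced from 250 pg of total RNA per sorted sample after 13 PCR cycles (SMARTer v4, Nextera XT), per the labels' protocols. The submitters' processing notes name the build mm10 and the tools STAR 2.7.2b, cutadapt, bcl2fastq 2.18, R 3.6.1 and DESeq2 1.24.0. Counter, annotation and strand setting: not given in the sources used here. A signal table deposited by the authors holds normalised counts, read counts divided by 1 factor per library. In every library 100% of values came out as whole reads within 0.01, and CPM are relative to these recovered reads.

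Of 42454 entries 36134 matched a RefSeq symbol. Entries listed more than once, 118 of the genes tested, were left out of gene lists and named genes; the cell type marker sums kept the entry with the plain name. Genes with a mean of at least 100 normalised counts over 15 libraries were tested (8656) with limma 3.58.1 (R 4.3.3) on log2(value + 100), robust trend, 1 weight per group over 5 groups, with Benjamini-Hochberg adjustment. A log2 difference is on this scale and understates changes of low genes. Recovered reads were also tested with edgeR 4.0.16, which called 35 genes, DESeq2 1.42.0 and voom. Named genes are the 12 with the largest differences in each direction among called genes, called list members (at most 4 per list), the list member with the highest mean, and 8 genes named in any case; the other called genes and further list members that are named were chosen after their values were seen. The values of 1 called gene are not reported here. Members and lists were chosen with earlier results of these data known. No libraries were duplicates (lowest chi-square per degree of freedom between replicates, 34.9). PCR reads without molecular identifiers are not independent molecules, so read floors cover counting error only.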

Additional observations from a re-analysis of the deposited data

Results flagged for a closer look

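Lemd3, the SMAD-binding protein of the inner nuclear membrane, lay on opposite sides in the punched and the unpunched ear. It had 155, 132 and 44.5 normalised counts in injsNAM, against 761, 623 and 704 in injIM, and every injsNAM library was lower. In the unpunched ear it had 1684, 1234 and 973 in sNAM, against 759, 509 and 691 in IM, and every sNAM library was higher, with a log2 difference of 0.88. The interaction was -2.83 ± 0.71 (SE), with an unadjusted p of 0.000796 and an adjusted p of 0.725 in limma's fit over all genes, so the difference between the ears did not pass the test. Lemd3 was picked from the 42 called genes, which were chosen by injsNAM minus injIM, a part of this interaction. The punched-ear call was kept in 1 of the 6 settings that leave out a library.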

How the results depend on the processing

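No called gene changed direction under any alternative, but the number of calls (42; 21 higher, 21 lower) moved. It was 69 (33 and 36) with 1 pooled spread, 21 (13 and 8) with only the 6 libraries, 102 (45 and 57) with no filter, and 314 (162 and 152) in DESeq2. Pseudocounts shifted the direction of the calls: 67 (5 and 62) with 1, 53 (8 and 45) with 10 and 43 (33 and 10) with 1000. voom called 28 (28 and 0), with 794 genes at an unadjusted p under 0.05. Of the 42 genes 8 were called by edgeR, DESeq2 and voom alike. Leaving out 1 library gave 2 to 75 calls, 1 to 57 higher and 0 to 45 lower. Interaction calls, 0 in the reported fit, were 4 with 1 pooled spread, 3 with pseudocount 1000, 6 with no filter, 26 and 31 in edgeR (TMM and the deposited factors) and 228 in DESeq2, and 0 in every setting that leaves out a library. With the replicate number as a block 70 genes were called (30 and 40), including all 42. The reported fit did not pair libraries by number, since the labels do not say that equal numbers mark the same mouse. Residuals of same-numbered injsNAM and injIM libraries correlated at 0.0439, 0.0522 and 0.164. Those of differently numbered libraries correlated at -0.0220, -0.0203, 0.127, -0.176, -0.140 and -0.0279. Whether equal numbers share a mouse was not tested. Of 103 named genes 98 kept their sign throughout. The exceptions were Mki67 (-0.014 with 1 weight per library; -0.20 to 0.53 over the settings that leave out 1 library), and over those settings C1qb (-0.048 to 0.21), Il1rn (-0.065 to 0.35), Irf7 (-0.34 to 0.82) and Cebpb (-0.23 to 0.065). The cause of these shifts was not tested. Lower genes with few or no reads in injsNAM have folds given only as bounds where all libraries were at 0.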

Other observations

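Neutrophil markers summed to 244, 180.3 and 236 CPM in injsNAM, against 104, 129.8 and 101 CPM in injIM. Every injsNAM sum was higher, and most of each sum came from 2 of the 11 markers that other myeloid cells also express, neither of them called. Csf3r, the receptor for G-CSF, had 116, 103 and 177 CPM in injsNAM and 92.4, 108 and 76.7 CPM in injIM, which overlapped, and Il1r2, the decoy receptor for interleukin-1, had 127, 43 and 56.8 CPM in injsNAM and 4.97, 12.8 and 17.7 CPM in injIM. S100a8, an abundant neutrophil protein, was lower in every injsNAM library, with 0, 2.72 and 0.0512 CPM in injsNAM and 3.52, 4.27 and 3.10 CPM in injIM. Ly6g, Retnlg, Camp and Ngp were at 0 in all injsNAM libraries and at 0.289 CPM or less in every injIM library, so they did not set the groups apart. Langerhans cell markers summed to 45.1, 93.5 and 194 CPM in injsNAM and 70.3, 82.6 and 80.8 CPM in injIM. Schwann cell markers summed to 9.37, 8.76 and 26.2 CPM in injsNAM and 11.8, 12.4 and 16.7 CPM in injIM, and 4 of the 7 were at 0 in all injsNAM libraries. Both of these sums overlapped. Keratinocyte sums were 2.45, 4.20 and 53.3 CPM in injsNAM and 10.7, 5.34 and 8.53 CPM in injIM, B cell sums 10.6, 4.74 and 8.20 CPM in injsNAM and 4.97, 4.95 and 6.75 CPM in injIM, and erythroid sums 8.30, 0 and 2.05 CPM in injsNAM and 0.675, 1.03 and 0.182 CPM in injIM.

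Among cell cycle genes Rrm1, a subunit of ribonucleotide reductase, had 1899, 2153 and 2801 normalised counts in injsNAM, against 536, 785 and 985 in injIM, and 5 of the 26 genes tested lay wholly above injIM and none wholly below, against 8.92% and 12% of all genes tested. None of the 26 was called. Ccnd2, a cyclin, had 2411, 0.981 and 1111 in injsNAM and 45.2, 48.6 and 47.1 in injIM, high in the same injsNAM replicates 1 and 3 as the lymphocyte genes. Neither passed the test (adjusted p = 0.333 and 0.161).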
